A study of Mus musculus with 11 samples.

Results

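JZL184 was compared with vehicle in the hearts of wild-type (WT) mice, with 3 WT JZL184 mice against 2 WT VEH mice, which are 5 of the 11 hearts that were sequenced. The genes described are 12233 of the 22608 in the count table. Their mean was at least 1 CPM over these 5 mice (CPM are counts scaled by library size). The size of change was not used to choose them. Since 3 of these mice were treated, a gene low in WT VEH could pass through a rise in WT JZL184. JZL184 is an irreversible inhibitor of monoacylglycerol lipase, the serine hydrolase encoded by Mgll. This enzyme splits the endocannabinoid 2-arachidonoylglycerol (2-AG) into glycerol and arachidonic acid, so its inhibition raises 2-AG, an agonist of the cannabinoid receptors CB1 and CB2, and in several tissues lowers the arachidonate available for prostaglandin synthesis. In the heart, CB1 and CB2 are found at low levels on myocytes, vessels and immune cells, and most RNA of the ventricle comes from cardiomyocytes, although endothelial cells, fibroblasts, smooth muscle cells, pericytes and macrophages make up much of its cell number.

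The mice were males on a C57BL/6J background aged 8 to 16 weeks, injected intraperitoneally with JZL184 at 8 mg/kg or with vehicle for 10 days. The WT mice were littermates of CD mice, which carry a heterozygous complete deletion of the interval that corresponds to the Williams-Beuren syndrome (WBS) critical region. The statistical model held WT VEH (2 mice), WT JZL184 (3 mice), CD VEH (3 mice) and CD JZL184 (3 mice), so that all 4 groups shared an estimate of the spread. The treatment field of the labels calls the control mice untreated, while their titles call them VEH, and each mouse is known here only by its group and by a letter from the count table. No measurement of the enzyme's activity or of 2-AG in these hearts was used here.

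Depth, composition and spacing of the libraries were examined first. Total counts lay between 69660329 and 87685002 in the 5 WT mice, at which 3 counts equal between 0.0342 and 0.0431 CPM. Genes of the mitochondrial genome took 41.2% and 39.4% of the counts in the WT VEH mice C and D and 45.0% to 46.6% in the WT JZL184 mice, and 3425 differentially expressed genes (DEGs, adjusted p under 0.05) were found without these genes, against 3430 with them. In a principal component analysis of the 500 most variable genes, the first component carried 59.3% of the variance and placed the WT VEH mice C and D at -12.8 and -9.19. It placed the WT JZL184 mice A, D and B at -0.243, 6.32 and 15.9, so that mouse B stood farthest from the controls and mouse A nearest. The labels call the tissue heart, and the study's methods describe removal of atria and large vessels for hearts used in qPCR, while the dissection of the sequenced hearts is not given in the sources used here. Of 4 atrial markers, Myl7 and Sln had means under 1 CPM, Myl4 had means of 1.47 CPM in WT VEH and 1.01 CPM in WT JZL184, and Nppa, which the strained ventricle also expresses, had 180 and 158 CPM. Of 6 skeletal muscle markers, Myh4, Myh1, Tnnt3, Pvalb and Actn3 had means under 1 CPM, while Ckm, the muscle creatine kinase that the heart shares, had 1546 and 1654 CPM.

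The gene for the drug's target was higher in the treated hearts. Mgll (ENSMUSG00000033174.17, chromosome 6 of GRCm38, 88724412 to 88828360, plus strand) had 101 and 123 CPM in vehicle mice C and D and 151, 197 and 177 CPM in JZL184 mice A, B and D, the order in which values per mouse are given throughout. All treated mice lay above both controls. The log2 fold-change was 0.64 (SE 0.14, adjusted p = 0.00827 by edgeR), and without VEH mouse C it was 0.51 with an edgeR adjusted p of 0.0958. Napepld, which encodes the phospholipase D that makes anandamide and related N-acylethanolamines, was the other enzyme of the system that changed. It had 6.05 and 6.29 CPM in WT VEH and 4.95, 4.39 and 4.95 CPM in WT JZL184, with no overlap. Its log2 fold-change was -0.37 (SE 0.09, adjusted p = 0.0116 by edgeR), which was no longer past the threshold without VEH mouse C (edgeR adjusted p = 0.0659), without VEH mouse D (0.0821) or with the 5 WT mice alone in the model (0.0722).

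The remaining enzymes of the endocannabinoid system were not called, and the genes of CB1 and CB2 were too low to test. Abhd6, another hydrolase of 2-AG, differed by 0.24 on the log2 scale (SE 0.13, adjusted p = 0.18 by edgeR), and Abhd12, also one, by 0.06. The genes of the diacylglycerol lipases that make 2-AG, Dagla and Daglb, had log2 fold-changes of -0.15 and -0.06, and the treated and control mice overlapped for both. Faah, the hydrolase of anandamide, was counted 11 to 23 times per mouse. Cnr1, which encodes CB1, was counted 0 to 2 times, so that at this depth neither a level nor a difference was measurable. Cnr2, which encodes CB2, was counted 53 to 111 times, which is 0.796 and 0.671 CPM in WT VEH and 0.69, 1.55 and 1.18 CPM in WT JZL184, below the limit for testing. Cnrip1, which encodes a protein that binds the tail of CB1, was upregulated, with 2.01 and 2.18 CPM in WT VEH and 2.70, 4.33 and 3.31 CPM in WT JZL184 (log2 fold-change 0.71 with SE 0.20, adjusted p = 0.024 by edgeR). Its adjusted p was 0.143 without VEH mouse C and 0.0946 without VEH mouse D.

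Downstream of 2-AG hydrolysis, 25 genes of arachidonate release and eicosanoid synthesis, breakdown and reception were tested. Of these, 7 were upregulated and 1 was downregulated, with a median log2 fold-change of 0.40, where 14.7% of all tested genes were upregulated, 13.4% were downregulated and the median of all genes was -0.0005. The counts of the lists below are to be read against these shares. With the 5 WT mice alone in the model, 8.70% of all tested genes were upregulated and 4.41% downregulated. For counts with a mouse left out, the shares of all tested genes that were upregulated and downregulated were 2.92% and 1.46% without VEH mouse C, 4.10% and 4.01% without VEH mouse D, 19.95% and 18.5% without mouse A, 9.36% and 7.66% without mouse B, and with the length offset they were 12.8% and 13.9%. Hpgd, which encodes the dehydrogenase that inactivates prostaglandins, had 5.07 and 4.71 CPM in WT VEH and 7.80, 9.55 and 10.7 CPM in WT JZL184 (log2 fold-change 0.94 with SE 0.13, adjusted p = 0.00199 by edgeR). The receptors among the upregulated genes were Tbxa2r for thromboxane (log2 fold-change 1.13), Ptger4 for prostaglandin E2 (0.75) and Ptgir for prostacyclin (0.72), and the treated mice lay above both controls for all of them. The edgeR adjusted p without VEH mouse C was 0.0669 for Tbxa2r and 0.0536 for Ptger4, and without VEH mouse D it was 0.0951 for Ptgir. Ephx2, the soluble epoxide hydrolase that removes epoxy fatty acids, was the downregulated gene (log2 fold-change -0.33, edgeR adjusted p = 0.0201, and 0.165 without VEH mouse D). Ptgs1, the constitutive cyclooxygenase, overlapped between the groups (log2 fold-change 0.39, edgeR adjusted p = 0.136). The median of the list ranged from 0.24 without mouse B to 0.57 without mouse A, and its upregulated genes numbered 2 without VEH mouse C, 3 without VEH mouse D, 4 without mouse B and 13 without mouse A.

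Across the transcriptome, 3430 genes were DEGs, which is 28.0% of those tested. Of these, 1793 were upregulated and 1637 were downregulated, at an edgeR adjusted p under 0.05, and 5130 genes had an unadjusted p under 0.05. The changes were mostly small. Upregulated DEGs had a median of 0.49 and downregulated DEGs one of -0.35 on the log2 scale, and a change of at least 1 was reached by 47 DEGs (42 up and 5 down). The 2 groups did not overlap in CPM for 3420 of the DEGs. Over all tested genes the WT JZL184 mice lay above both controls for 27.1% and below both for 26.9%. The number of DEGs depended strongly on the 2 control mice, being 535 without VEH mouse C and 992 without VEH mouse D, and it was 2082 without JZL184 mouse B. With the 5 WT mice alone in the model it was 1603, of which 1573 were among the 3430.

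The upregulated genes of largest change included genes known from smooth muscle, endothelium and antigen presentation. Myh11, the smooth muscle myosin heavy chain (ENSMUSG00000018830.8, chromosome 16, 14194535 to 14291372), had 15.1 and 12.1 CPM in WT VEH and 41.7, 32.7 and 24.5 CPM in WT JZL184. Its log2 fold-change of 1.28 (SE 0.21, adjusted p = 0.00318 by edgeR) was the highest among DEGs with a mean of at least 10 CPM and no overlap. Next by this rule came Tcf15 (1.17), which encodes a transcription factor of heart capillary endothelium, Tagln (1.15), an actin-binding protein of smooth muscle, and Myl9 (1.13), its regulatory myosin light chain. They were followed by H2-Aa (1.05) and H2-Eb1 (1.0), which each encode an MHC class II chain, and H2-Q6 (1.04), a class I gene. Also in this group were Meox2 (1.04), a homeobox factor of endothelium, and Apoe (1.03), the apolipoprotein that macrophages secrete. A further member was Hic1 (1.0), a transcriptional repressor of mesenchymal cells. H2-Q6 has close relatives in the same cluster, so that reads may have been divided among them by the authors' quantification. Leaving out VEH mouse C brought the edgeR adjusted p to 0.0667 for H2-Aa and H2-Q6, to 0.0978 for H2-Eb1 and to 0.0574 for Apoe, and without VEH mouse D it was 0.084 for H2-Q6 and 0.0549 for H2-Eb1. The 6 other genes passed in every alternative tried.

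The downregulated genes of largest change included Ttn, Myh7, Myh7b and Ryr2, which cardiomyocytes are known to express. Ttn, the giant spring protein of the sarcomere (ENSMUSG00000051747.14, chromosome 2, 76703980 to 76982547), had 3959 and 2853 CPM in WT VEH and 1766, 1015 and 2179 CPM in WT JZL184, with no overlap. The log2 fold-change was -1.04 (SE 0.30, adjusted p = 0.0239 by edgeR). It was -0.51 with an offset for gene length, and the call was lost in 4 alternatives, namely this offset and the fits without VEH mouse C (adjusted p = 0.187, the highest), VEH mouse D or JZL184 mouse B. Myh7, the slow myosin heavy chain of the fetal ventricle, had 261 and 160.2 CPM in WT VEH and 94.6, 108 and 115 CPM in WT JZL184 (log2 fold-change -0.99 with SE 0.19, adjusted p = 0.0055 by edgeR), which was -0.60 without VEH mouse C (edgeR adjusted p = 0.0783). Ppara, the nuclear receptor that drives fatty acid oxidation, fell from 38.0 and 31.1 CPM to 21.0, 15.9 and 18 CPM (log2 fold-change -0.91 with SE 0.12, adjusted p = 0.00136 by edgeR). Below it came Prune2 (-0.89), Bcl6 (-0.87), Myocd (-0.86), the coactivator of serum response factor, Nav2 (-0.82), Lpin1 (-0.78), a phosphatidate phosphatase, Myh7b (-0.77) and Ryr2 (-0.75), the calcium release channel. Bcl6, a transcriptional repressor, was the least secure, with an edgeR adjusted p of 0.048 and 7 alternatives that did not call it, the highest being 0.45 without VEH mouse C, where its log2 fold-change was -0.41. The adjusted p without VEH mouse C was also 0.0579 for Prune2, 0.0659 for Myh7b and 0.0867 for Ryr2, and without VEH mouse D it was 0.0561 for Ryr2.

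**Figure D1:**
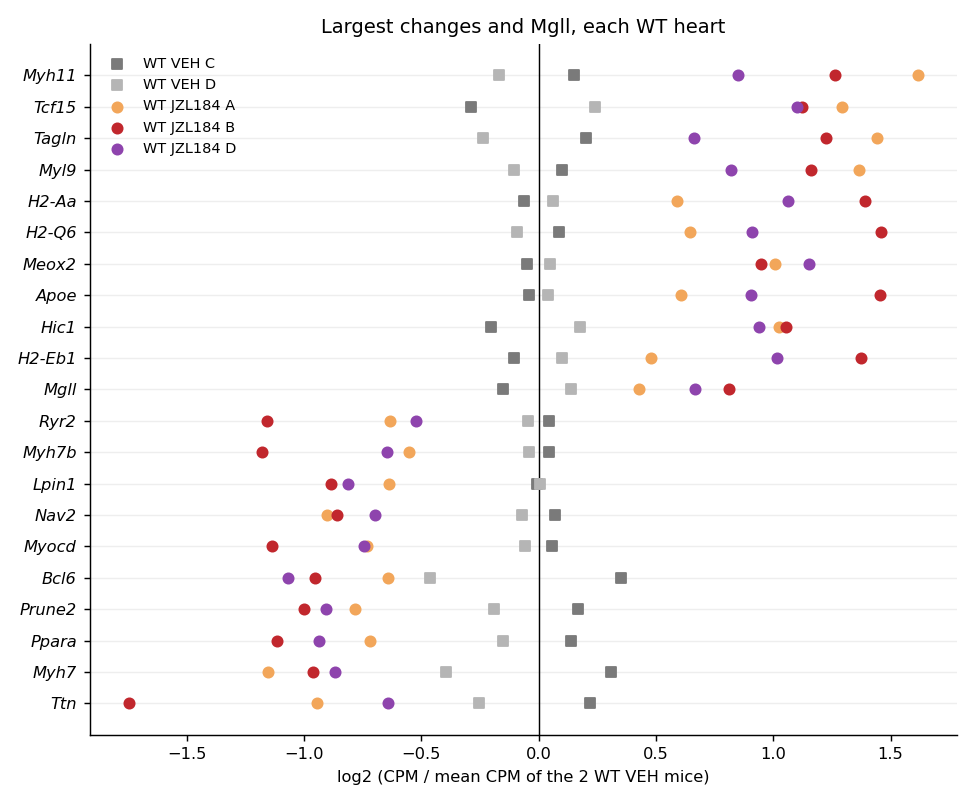
Log2 ratio of each WT heart's CPM to the mean CPM of the 2 WT VEH hearts (horizontal axis), for the 10 genes with the highest and the 10 with the lowest log2 fold-change by the rule in the text, and for Mgll. Grey squares are WT VEH mice and coloured circles are WT JZL184 mice. Circles and squares do not overlap for any gene shown, and mouse B lies lowest for Ttn (1015 CPM) and Ryr2 (592 CPM).

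Vascular smooth muscle genes were mostly higher in the treated hearts. Of 24 tested genes of the contractile and pericyte list, 17 were upregulated and 4 downregulated, with a median log2 fold-change of 0.60. Tagln had 12.5 and 9.21 CPM in WT VEH and 29.4, 25.4 and 17.2 CPM in WT JZL184, and Myl9 had 10.9 and 9.52 CPM against 26.4, 22.8 and 18.1 CPM. For Myh11, Tagln and Myl9 the order of the treated mice was A, B, D from highest to lowest, unlike most other upregulated genes, for which mouse B was highest. Mylk, the kinase of the myosin light chain (log2 fold-change 0.64), Gucy1b1, a subunit of the nitric oxide receptor guanylyl cyclase (0.62, SE 0.07, edgeR adjusted p = 0.000877), and Rgs5, a marker of pericytes (0.56), were upregulated as well. Acta2, smooth muscle actin, overlapped between the groups, with 50.2 and 67.7 CPM in WT VEH and 85.4, 60.7 and 77.1 CPM in WT JZL184 (log2 fold-change 0.34, edgeR adjusted p = 0.208). The 4 downregulated members were Ppp1r12b (-0.60), a targeting subunit of myosin phosphatase that striated muscle also expresses, Smtn (-0.49), smoothelin, Prkg1 (-0.38), the cGMP-dependent kinase, and Synpo2 (-0.37), an actin-bundling protein of striated and smooth muscle. Prkg1 was not called in 10 of 15 alternatives and Synpo2 not in 5, with the highest edgeR adjusted p at 0.268 for Prkg1 without VEH mouse C and at 0.227 for Synpo2 without VEH mouse D. The list had 12 upregulated genes without VEH mouse C and 11 without VEH mouse D.

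Many smooth muscle genes are driven by serum response factor, which binds the CArG box together with myocardin, so the promoters of tested genes were searched for this element on both strands. A window from 250 bases before to 50 bases after the start was held for 9568 of the 12233 genes (RefSeq, GRCm38.p6). Only its 250 bases before the start were searched. The CArG box was found in 2 of 21 smooth muscle windows, those of Myl9 and Myl6 (9.52%). It was found in 6 of 25 sarcomere windows (24%, those of Acta1, Actc1, Ldb3, Myl3, Myom1 and Nebl) and in 1.4% of all windows. Among windows of DEGs, 1.62% of the upregulated and 2.27% of the downregulated held it. The sequence of the Myl9 window is shown because Myl9 was one of the genes of largest rise in both this list and the search. It covers -181 to -32 from the start (chr2:156775283-156775432, plus strand) and is written 5′ to 3′ with the CArG box, whose first base is at -161, in capitals.
Myl9: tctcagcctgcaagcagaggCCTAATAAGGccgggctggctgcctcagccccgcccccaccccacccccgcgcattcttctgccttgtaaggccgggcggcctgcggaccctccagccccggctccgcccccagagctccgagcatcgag
The 6 sarcomere genes with the element had a median log2 fold-change of -0.34 and the 19 without it had -0.39, and 3 and 8 of them were downregulated. Myocd, the cofactor, went from 45.4 and 42.0 CPM to 26.3, 19.8 and 26.1 CPM (log2 fold-change -0.86 with SE 0.11, adjusted p = 0.00133 by edgeR).

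Most endothelial genes were higher in the treated hearts. Of 41 tested genes, 33 were upregulated, with a median log2 fold-change of 0.60, and the upregulated genes numbered 20 without VEH mouse C and 25 without VEH mouse D. Pecam1, an adhesion molecule of endothelial junctions, had 116 and 112 CPM in WT VEH and 178, 179.9 and 177 CPM in WT JZL184 (log2 fold-change 0.65 with SE 0.08, adjusted p = 0.00128 by edgeR). The 3 treated mice were nearly equal for it. Meox2 had 8.27 and 8.84 CPM in WT VEH and 17.2, 16.5 and 19 CPM in WT JZL184, with the lowest adjusted p of the list (SE 0.10, adjusted p = 0.000465 by edgeR). Ly6c1, a surface protein of microvascular endothelium, rose from 80.4 and 79.0 CPM to 141, 148 and 126 CPM (log2 fold-change 0.80). Emcn, which encodes endomucin (log2 fold-change 0.98), Fabp4, the fatty acid carrier of capillaries (0.92), Cdh5, VE-cadherin (0.61), and Robo4, a guidance receptor (0.54), were upregulated in every alternative tried. Aplnr, the apelin receptor (0.98), and Cldn5, a tight junction protein (0.84), had edgeR adjusted p-values of 0.0577 and 0.112 without VEH mouse C. The downregulated member was Vegfa, the growth factor that cardiomyocytes supply to endothelium, with 259.9 and 275 CPM in WT VEH and 226, 152 and 205 CPM in WT JZL184 (log2 fold-change -0.46, edgeR adjusted p = 0.0239, and 0.0953 and 0.13 without VEH mouse C or D).

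Genes of fibroblasts and matrix that passed the test were all higher. Of 39 tested genes, 15 were upregulated and 0 downregulated, with a median log2 fold-change of 0.31. Dcn, the proteoglycan decorin, had 393 and 366 CPM in WT VEH and 525, 633 and 562 CPM in WT JZL184 (log2 fold-change 0.60 with SE 0.09, adjusted p = 0.0028 by edgeR). Tcf21, a transcription factor of cardiac fibroblasts (0.63), and Lum, the proteoglycan lumican (0.73), were also upregulated. Postn, periostin, which activated fibroblasts secrete, had a log2 fold-change of 0.65 (edgeR adjusted p = 0.022, and 0.0849 and 0.145 without VEH mouse C or D), which was 0.42 without mouse B. Col1a1, the main chain of type I collagen, had 52.2 and 55.3 CPM in WT VEH and 39.1, 58.0 and 51.8 CPM in WT JZL184, so that the groups overlapped (log2 fold-change -0.11, edgeR adjusted p = 0.595). The list had 4 upregulated genes without VEH mouse C, 3 without VEH mouse D and 10 without JZL184 mouse B.

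**Figure D2:**
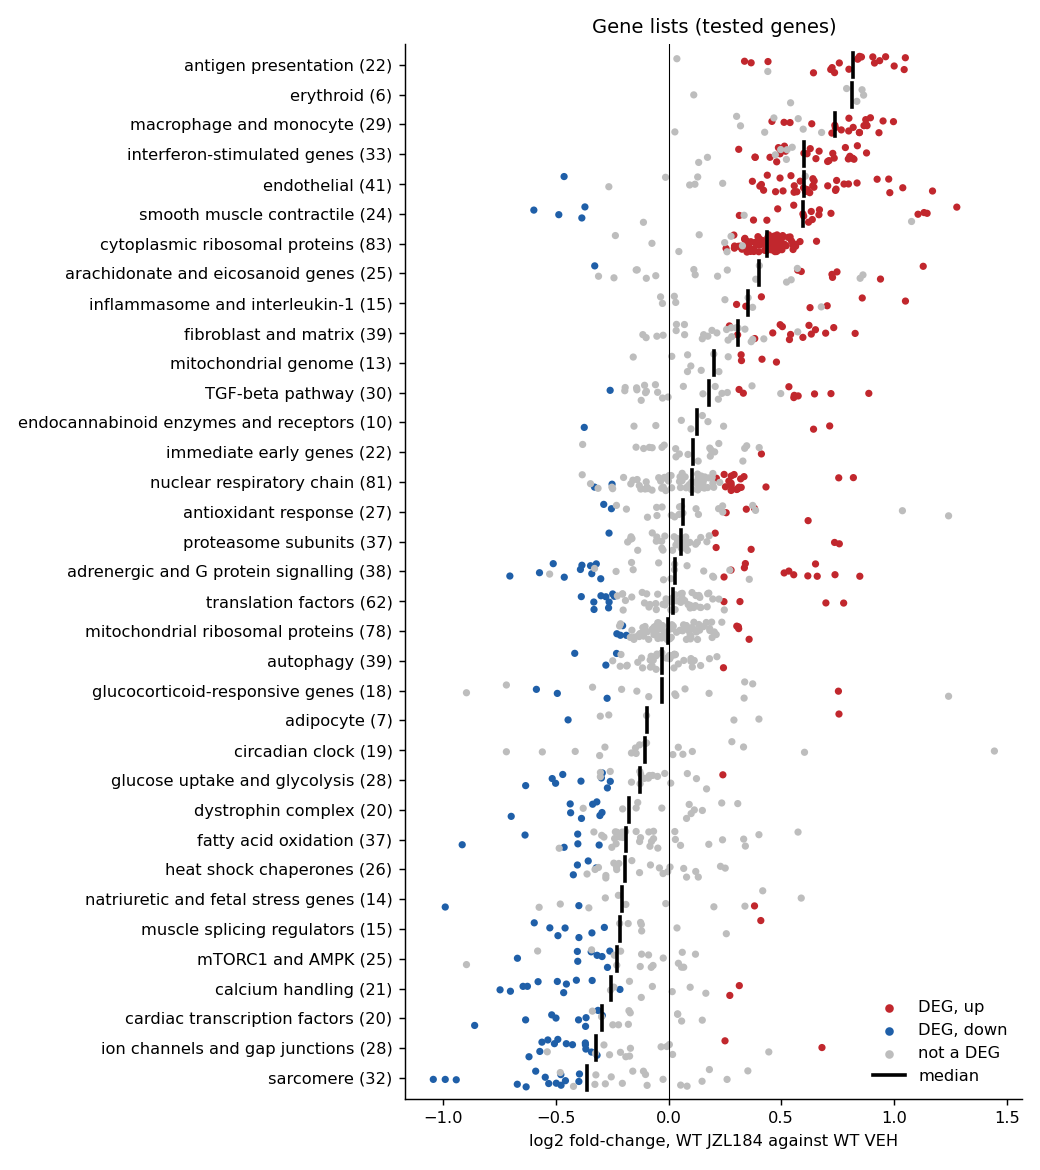
Log2 fold-change of every tested gene (horizontal axis) in each gene list (rows, number of tested genes in brackets, sorted by median). Red points are upregulated DEGs, blue points downregulated DEGs, grey points other genes, and black bars medians, which run from 0.82 for antigen presentation to -0.36 for the sarcomere.

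Antigen presentation was among the lists of highest median, beside the erythroid list (0.81, 0 genes called), which stood above it without VEH mouse C (0.97 and 0.78). Of 22 tested genes, 20 were upregulated and 0 downregulated, with a median log2 fold-change of 0.82. B2m, the light chain of MHC class I, had 119 and 121 CPM in WT VEH and 205, 281 and 217 CPM in WT JZL184 (log2 fold-change 0.96 with SE 0.15, adjusted p = 0.00265 by edgeR). The class I heavy chains H2-D1 (0.91) and H2-K1 (0.85) and the nonclassical H2-T23 (0.72) passed in every alternative, although reads of class I genes may be divided among relatives. H2-Aa had 40.6 and 44.2 CPM in WT VEH and 63.6, 111 and 88.4 CPM in WT JZL184. H2-Ab1 (0.91) and Cd74 (0.84), the invariant chain that guides class II molecules, had their highest value in mouse B too, and their edgeR adjusted p-values without mouse B were 0.0612 and 0.0664, up to 0.147 for H2-Ab1 and 0.155 for Cd74 without VEH mouse C. Of the subunits of the immunoproteasome, which cuts peptides for class I, Psmb8 (0.76), Psmb9 (0.74) and Psmb10 (0.37) were upregulated, while only 5 of 37 proteasome genes, these 3 among them, were. Psmb8 and Psmb9 lost the call without VEH mouse C (edgeR adjusted p = 0.112 and 0.0764) and without VEH mouse D (0.089 and 0.0802). The list had 6 upregulated genes without VEH mouse C, 8 without VEH mouse D and 15 without mouse B.

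Most interferon-stimulated genes were higher as well. Of 33 tested genes, 26 were upregulated and 0 downregulated, with a median log2 fold-change of 0.60. Ifit2, an RNA-binding antiviral protein, had 9.79 and 10.6 CPM in WT VEH and 17.3, 16.6 and 19.9 CPM in WT JZL184 (log2 fold-change 0.82 with SE 0.14, adjusted p = 0.00406 by edgeR, and 0.0512 without VEH mouse C). Irf1, a transcription factor that interferon induces, went from 14.9 and 15.7 CPM to 21.9, 27.6 and 22.6 CPM (log2 fold-change 0.65). Ifit1 (0.80), Ifit3 (0.88), Rsad2 (0.80) and Isg15 (0.80), a ubiquitin-like modifier, were called, with adjusted p-values without VEH mouse C of 0.0879, 0.096, 0.076 and 0.224. The call of this list depended on the controls, with 1 upregulated gene without VEH mouse C, 12 without VEH mouse D and 17 without mouse B, while its median stayed between 0.50 and 0.73 in these 3 settings.

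Many interferon-stimulated genes carry the interferon-stimulated response element (ISRE). Its core was searched in the same 250 bases as GAAA, any 2 bases and GAAA again on both strands, with overlapping matches kept. It was found in 13 of 25 windows of the interferon list (52%), in 3 of 17 of the antigen presentation list (17.6%, B2m, Ctss and H2-T23), in 6.33% of upregulated and 2.51% of downregulated genes and in 3.17% of all windows. Of the 13 interferon genes with the core, 11 were upregulated (median log2 fold-change 0.71), and of the 12 without it, 10 were (median 0.61). Windows of a class I gene and of 2 interferon genes are shown, each from -150 to -1 and written 5′ to 3′ in the direction of the gene, with the cores in capitals. They are B2m (chr2:122147537-122147686, plus strand, core at -139), Ifit1 (chr19:34640739-34640888, plus strand, cores at -104 and -85, both on the opposite strand) and Isg15 (chr4:156200819-156200968, minus strand, 3 overlapping cores at -78, -72 and -66).
B2m: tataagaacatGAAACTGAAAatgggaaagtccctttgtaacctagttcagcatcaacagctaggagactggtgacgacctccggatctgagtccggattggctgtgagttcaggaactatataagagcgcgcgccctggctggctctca
Ifit1: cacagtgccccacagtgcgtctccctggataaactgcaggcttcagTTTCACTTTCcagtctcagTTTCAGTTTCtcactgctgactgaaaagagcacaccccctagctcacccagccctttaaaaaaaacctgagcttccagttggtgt
Isg15: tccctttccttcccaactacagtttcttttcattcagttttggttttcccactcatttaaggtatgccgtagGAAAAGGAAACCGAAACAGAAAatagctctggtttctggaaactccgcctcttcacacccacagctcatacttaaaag
A match is a description of these letters and was not tested as a binding site.

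Macrophage and monocyte genes completed the upregulated immune lists. Of 29 tested genes, 21 were upregulated and 0 downregulated, with a median log2 fold-change of 0.74. Adgre1, which encodes the macrophage antigen F4/80, had 11.8 and 12.3 CPM in WT VEH and 16.4, 23.3 and 20.5 CPM in WT JZL184 (log2 fold-change 0.74 with SE 0.14, adjusted p = 0.00485 by edgeR, and 0.0548 without VEH mouse C). The complement gene C1qc went from 27.8 and 31.3 CPM to 40.7, 72.3 and 56.4 CPM (log2 fold-change 0.93), and Lyz2, lysozyme, from 129 and 139 CPM to 178, 310.1 and 251 CPM (0.87). Mouse B was highest and mouse A lowest of the treated mice for these genes. Csf1r, the receptor for the growth factor of macrophages (0.63), and Tyrobp, an adaptor of myeloid receptors (0.95), were called too. Without VEH mouse C the edgeR adjusted p was 0.0769 for C1qc, 0.0829 for Lyz2, 0.0869 for Csf1r and 0.0571 for Tyrobp. The list had 2 upregulated genes without VEH mouse C and 2 without VEH mouse D, with medians of 0.71 and 0.80. Of 15 tested genes of the inflammasome and interleukin-1 list, 7 were upregulated, among them Casp1 (1.05), the protease that matures interleukin-1 beta, and Il1r1 (0.41), its receptor, and 1 was without VEH mouse C, 1 without VEH mouse D and 3 without mouse B. Casp1 was not called without VEH mouse C (edgeR adjusted p = 0.0856) or D (0.0862), and Il1b itself, with 1.17 to 3.04 CPM, had an edgeR adjusted p of 0.158.

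Genes of the cardiomyocyte's contractile apparatus were the counterpart among downregulated genes. Of 32 tested sarcomere genes, 14 were downregulated and 0 upregulated, with a median log2 fold-change of -0.36. Actn2, the crosslinker of the Z-disc (-0.48), Tmod1, which caps thin filaments (-0.39), and Flnc, filamin C (-0.67), were downregulated. Neb, nebulin, which is scarce in the heart, had a log2 fold-change of -0.94, from 6.93 and 7.08 CPM to 2.89, 2.84 and 5.18 CPM. Myh6, the main myosin heavy chain of the adult mouse ventricle, had a log2 fold-change of -0.50 (edgeR adjusted p = 0.0357, and 0.0783 without mouse B). Without VEH mouse C the adjusted p was 0.0665 for Actn2, 0.0617 for Tmod1, 0.089 for Neb and 0.136 for Myh6, and without VEH mouse D it was 0.0894 for Flnc. The list had 1 downregulated gene without VEH mouse C, 1 without VEH mouse D and 9 without mouse B, while its median lay between -0.43 and -0.26 with any of the 5 mice left out.

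The sarcomere genes did not move as a block. Tnnt2, cardiac troponin T, had a log2 fold-change of -0.09 (edgeR adjusted p = 0.549), Tnni3, cardiac troponin I, had 0.08 (0.569), and Myl2, the ventricular regulatory light chain, had 0.15 (0.321). These short genes overlapped between the groups. When tested genes were split into 3 equal groups by exon length, 0 of the 12 sarcomere genes in the shortest group were downregulated (median 0.01), 4 of 7 in the middle group were (median -0.42) and 10 of 13 in the longest (median -0.55). Over all tested genes, 4.64% were downregulated and 20.1% upregulated in the shortest group, and 23.5% and 9.23% in the longest. With an offset for gene length, 14 sarcomere genes were downregulated and the median was -0.39.

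Calcium handling and ion channel genes also tended to be lower. Of 21 tested calcium genes, 11 were downregulated and 2 upregulated, with a median log2 fold-change of -0.26. Ryr2 had 1365 and 1281 CPM in WT VEH and 853, 592 and 920.2 CPM in WT JZL184 (SE 0.18, adjusted p = 0.0114 by edgeR). The subunits of the L-type calcium channel were lower together, with log2 fold-changes of -0.70 for Cacna1c, -0.63 for Cacna2d1 and -0.58 for Cacnb2, and Cacnb2 passed in every alternative. Atp2a2, the calcium pump SERCA2 (-0.49), and Slc8a1, the sodium-calcium exchanger (-0.64), were downregulated, whereas Pln, phospholamban, the pump's inhibitor, overlapped (-0.17, edgeR adjusted p = 0.219). The upregulated members included Itpr2 (0.31), an IP3 receptor. Without VEH mouse C the edgeR adjusted p was 0.0867 for Ryr2, 0.0898 for Cacna1c, 0.0509 for Cacna2d1, 0.064 for Atp2a2, 0.0982 for Slc8a1 and 0.123 for Itpr2. The calcium list had 2 downregulated genes without VEH mouse C and 4 without VEH mouse D.

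Of 28 tested ion channel and gap junction genes, 13 were downregulated and 2 upregulated, with a median log2 fold-change of -0.32. Kcnd3, which carries the transient outward potassium current, went from 17.5 and 15.9 CPM to 12.3, 11.5 and 10.8 CPM (log2 fold-change -0.53, edgeR adjusted p = 0.00235). The 3 treated mice were close together, and mouse D, not mouse B, was the farthest from the controls. Kcnj8, the pore of the KATP channel in pericytes and smooth muscle, rose from 28.4 and 27.7 CPM to 40.0, 51.0 and 43.9 CPM (log2 fold-change 0.68), and Gjc1, a connexin, had 0.25 (edgeR adjusted p = 0.0444, not called in 7 alternatives). The list had 4 downregulated genes without VEH mouse C and 7 without VEH mouse D.

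Of 20 tested cardiac transcription factors, 9 were downregulated and 0 upregulated, with a median log2 fold-change of -0.30. Tead1, an effector of the Hippo pathway that binds muscle promoters, had 175 CPM in both WT VEH mice and 117, 101 and 121 CPM in WT JZL184 (log2 fold-change -0.63 with SE 0.09, adjusted p = 0.00219 by edgeR). Tbx20 (-0.52), Mef2a (-0.40) and Gata4 (-0.29), regulators of cardiomyocyte identity, were lower by smaller amounts, and their edgeR adjusted p-values without VEH mouse C were 0.0855, 0.108 and 0.0952. The list had 2 downregulated genes without VEH mouse C and 4 without VEH mouse D. The stress markers of the ventricle did not follow Myh7. Of 14 tested natriuretic and fetal genes, 2 were downregulated (Myh7 and Fhl1) and 1 upregulated (Npr1, the receptor of natriuretic peptides, 0.38), and Nppb, which encodes brain natriuretic peptide, had 229 and 185 CPM in WT VEH and 486, 247 and 199.7 CPM in WT JZL184 (edgeR adjusted p = 0.288). Ankrd1 and Acta1, 2 other genes of the strained ventricle, had log2 fold-changes of 0.20 and -0.28 and were not called.

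Genes of fuel use were lower in part. Of 37 tested fatty acid oxidation genes, 6 were downregulated and 0 upregulated (median -0.19), which is near the 13.4% of all genes. They included Ppara, Esrrg, an orphan receptor that drives oxidative genes (log2 fold-change -0.64 with SE 0.10, adjusted p = 0.00273 by edgeR), and Cpt1b, which admits fatty acids to muscle mitochondria. Cpt1b had 477 and 529 CPM in WT VEH and 359.6, 361 and 375 CPM in WT JZL184 (log2 fold-change -0.46, edgeR adjusted p = 0.00376). The list had 3 downregulated genes without VEH mouse C, 3 without VEH mouse D and 15 without mouse A. Of 28 tested genes of glucose uptake and glycolysis, 9 were downregulated and 1 upregulated (median -0.13), among them Hk1, hexokinase (-0.39), and Pfkm, muscle phosphofructokinase (-0.47). Pfkm was not called without VEH mouse C (edgeR adjusted p = 0.0541) or D (0.0645), and the count of downregulated glycolytic genes ran from 1 without VEH mouse C or D to 18 without mouse A. Of 25 tested mTORC1 and AMPK genes, 8 were downregulated and 0 upregulated (median -0.23). Prkaa2, the catalytic AMPK subunit of muscle, went from 144 and 129 CPM to 91.4, 73.4 and 92.0 CPM (log2 fold-change -0.67 with SE 0.11, adjusted p = 0.00265 by edgeR). The list had 1 downregulated gene without VEH mouse C and 1 without VEH mouse D.

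Nearly all cytoplasmic ribosomal protein genes were higher in the treated hearts. Of 83 tested genes, 75 were upregulated and 0 downregulated, with a median log2 fold-change of 0.44, and 79 lay above both controls in all treated mice. Rps26, a protein of the small subunit, had 59.3 and 58.3 CPM in WT VEH and 78.8, 89.6 and 77.6 CPM in WT JZL184 (log2 fold-change 0.48 with SE 0.08, adjusted p = 0.00375 by edgeR). Rpl3l, the form of ribosomal protein L3 found in striated muscle, had a log2 fold-change of -0.24 and was not called (edgeR adjusted p = 0.0832). These genes are short, and with the offset for gene length 44 were upregulated and 1 downregulated, with a median of 0.26. The count was 66 without mouse B, 7 without VEH mouse C and 13 without VEH mouse D, while the median lay between 0.36 and 0.48 with any mouse left out. Ribosomal protein genes have many processed pseudogenes in the mouse, and how the reads were divided among them was not tested.

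Nuclear genes of the respiratory chain were called in part. Of 81 tested genes, 20 were upregulated and 2 downregulated, with a median log2 fold-change of 0.11. The highest were Cox4i2 (0.82) and Ndufa4l2 (0.75), isoforms found in pericytes and smooth muscle, of which Cox4i2 went from 4.01 and 4.28 CPM to 5.89, 8.95 and 7.13 CPM and was not called without VEH mouse C (edgeR adjusted p = 0.0558). The list had 1 upregulated gene without VEH mouse C, 4 without VEH mouse D and 12 without mouse B, and its downregulated genes numbered 10 without mouse A. With the offset for gene length the list had 5 upregulated and 10 downregulated genes and a median of -0.09, so that its direction was not the same under both scalings. Of the 13 genes of the mitochondrial genome, 4 were upregulated, among them mt-Co3 (0.41) and mt-Nd3 (0.48), with a median of 0.20, and 0 were called with the length offset (median -0.04), without mouse B, without VEH mouse C and without VEH mouse D. Mitochondrial ribosomal protein genes were divided, with 4 of 78 upregulated, 4 downregulated and a median of -0.003, although 15 were downregulated with the length offset, 16 without mouse A and 0 were called without VEH mouse C or D. Translation factors (4 up and 9 down of 62) and proteasome subunits (5 up and 1 down of 37) had medians of 0.02 and 0.06, which became -0.02 and -0.06 with the offset. Without mouse A, 8 translation factors were upregulated and 14 downregulated, against 0 and 1 without VEH mouse C, and for the proteasome 4 and 5 were, against 1 and 0 without VEH mouse C or D.

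Clock, stress and early response genes gave few DEGs. None of 19 tested circadian genes was a DEG by edgeR or by DESeq2, 1 had an unadjusted p under 0.05, and 3 of them set mouse B apart. Clock was downregulated without mouse A (edgeR adjusted p = 0.0176) and Per1, a repressor of the clock, without mouse B (0.037), with 2 genes downregulated in the former fit and 1 in the latter. Dbp, an output gene of the clock, had 6.62 and 6.25 CPM in WT VEH and 7.14, 38.8 and 6.86 CPM in WT JZL184 (log2 fold-change 1.44 with SE 0.71, adjusted p = 0.141 by edgeR). Arntl, which encodes the clock activator BMAL1, had 22.3 and 22.7 CPM against 23.5, 9.16 and 22.0 CPM. Nr1d1, the repressor REV-ERB alpha, had 37.1 and 45.3 CPM against 28.2, 72.5 and 28.7 CPM. These genes vary with the hour of the day, and the hour at which each heart was taken was not used here. Of 22 tested immediate early genes, 1 was upregulated (Klf2, 0.41, which endothelium also expresses), and of 26 heat shock genes 4 were downregulated, led by Hspa9 (-0.42) and Hspa4 (-0.40). Klf2, Hspa9 and Hspa4 were not called without VEH mouse C (edgeR adjusted p = 0.268, 0.0874 and 0.0736). Both shares were close to or under the background of 14.7% up and 13.4% down, and the downregulated heat shock genes numbered 0 without VEH mouse C or D, 9 with the length offset and 12 without mouse A.

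Summed markers of endothelium, macrophages, fibroblasts and smooth muscle were higher in the treated hearts, and the cardiomyocyte sum was lower. The summed CPM of 6 endothelial markers was 783 and 797 in WT VEH and 1229, 1442 and 1278 in WT JZL184, and all 6 were upregulated. For 6 macrophage markers the sum was 222 and 236 against 295, 492 and 412, and all 6 were upregulated. The sums of 6 fibroblast markers (592 and 568 against 733, 898 and 811) and 6 smooth muscle and pericyte markers (855 and 870 against 1111, 1105 and 1051) had 4 upregulated genes each, and the members not called were Col1a1 (-0.11) and Col1a2 (0.15) among fibroblast markers and Acta2 (0.34) and Abcc9 (-0.26) among the others, where Rgs5 made the largest contribution to the sum (means of 451 CPM in WT VEH and 663 CPM in WT JZL184). None of these pairs of groups overlapped. The sum of 6 cardiomyocyte markers was 30443 and 31150 in WT VEH and 28420, 20624 and 25305 in WT JZL184, with 3 of 6 downregulated (Myh6, Actn2 and Ryr2). Myh6 made up most of the fall, with means of 15160 and 10739 CPM, while Tnnt2 (-0.09), Pln (-0.17) and Tnni3 (0.08) were not called. In bulk tissue, fewer cells of a type and less RNA per cell cannot be told apart, so these sums stand beside each of the cell type lists above and their part in those changes was not tested.

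Blood and minor cell types were examined likewise. Erythroid markers summed to 2493 and 2037 CPM in WT VEH and 3917, 5470 and 2629 CPM in WT JZL184, but 0 of 5 were called by edgeR or DESeq2 and 0 had an unadjusted p under 0.05, and Hba-a1 and Hba-a2, which are near-identical alpha-globin genes, had edgeR adjusted p-values of 0.378 and 0.367. Lymphocyte and adipocyte markers had means under 1 CPM in all cases, including Cd3e, Adipoq and Plin1. The neutrophil genes S100a8, Ly6g and Retnlg were under 1 CPM as well. Pf4, which platelets and cardiac macrophages express, was upregulated (log2 fold-change 0.88, edgeR adjusted p = 0.0163).

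**Figure D3:**
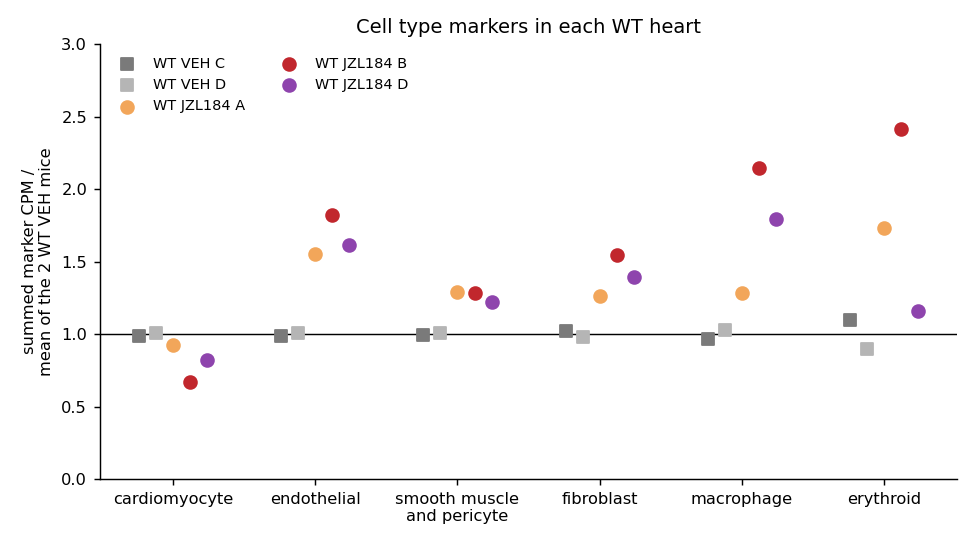
Summed CPM of the markers of each cell type (horizontal axis) in each WT heart, divided by the mean of the 2 WT VEH hearts (vertical axis, linear from 0). Grey squares are WT VEH mice and coloured circles WT JZL184 mice. The endothelial sums of the treated mice (1229 to 1442 CPM) lie above both controls, the cardiomyocyte sums (20624 to 28420 CPM) lie below, and mouse B is highest for macrophages and erythroid cells.

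The treated mice differed in how far they lay from the controls. Mouse B had the highest CPM of the 3 for 1281 of the 1793 upregulated DEGs and the lowest for 1172 of the 1637 downregulated DEGs. Mouse A was highest for 154 and lowest for 302, and mouse D was highest for 358 and lowest for 163. The median log2 ratio to the WT VEH mean over upregulated DEGs was 0.35 in mouse A, 0.61 in mouse B and 0.49 in mouse D. Over downregulated DEGs it was -0.30, -0.44 and -0.31. Mouse B was also the one with the lowest sum of cardiomyocyte markers, the highest mitochondrial share (46.6%) and the displaced clock genes, and the part of these features in its larger distance was not tested. Without mouse B, 2042 of its 2082 DEGs were among the 3430.

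Fold-changes varied with the length of the gene. Exon length was known for 12153 tested genes, and across them, as a description of genes that are not independent, the Pearson correlation of log2 exon length with log2 fold-change was -0.31. The median exon length was 3713.5 bases for upregulated DEGs, 6732.5 bases for downregulated DEGs and 4611 bases for all tested genes. With tested genes split into 10 equal groups by exon length, 26.6% were upregulated and 1.97% downregulated in the shortest (median log2 fold-change 0.17), and in the longest 6.83% were upregulated and 29.8% downregulated (median -0.17). The correlation with log2 mean CPM was -0.22 and that with GC content was 0.11. By mouse, the shortest of these groups deviated from the mean of the 5 mice by -0.12 and -0.08 in VEH mice C and D and by 0.06, 0.13 and 0.02 in JZL184 mice A, B and D. An offset that removed the trend in each mouse left 3259 DEGs, 2651 of them among the 3430, and changed the sign of 15 of the 3430. Endothelial (31 upregulated, median 0.54), smooth muscle (16, 0.52), antigen presentation (20, 0.67), macrophage (19, 0.59) and interferon genes (23, 0.53) kept their direction with the offset. Among single genes, the offset brought Nav2 to -0.52, Ryr2 to -0.48, Mef2a to -0.24, Psmb10 to 0.20 and Rps26 to 0.30, which were still called, and Synpo2 (-0.24), Klf2 (0.25), mt-Co3 (0.15) and mt-Nd3 (0.10) were not. What part length has in the other changes was not tested.

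**Figure D4:**
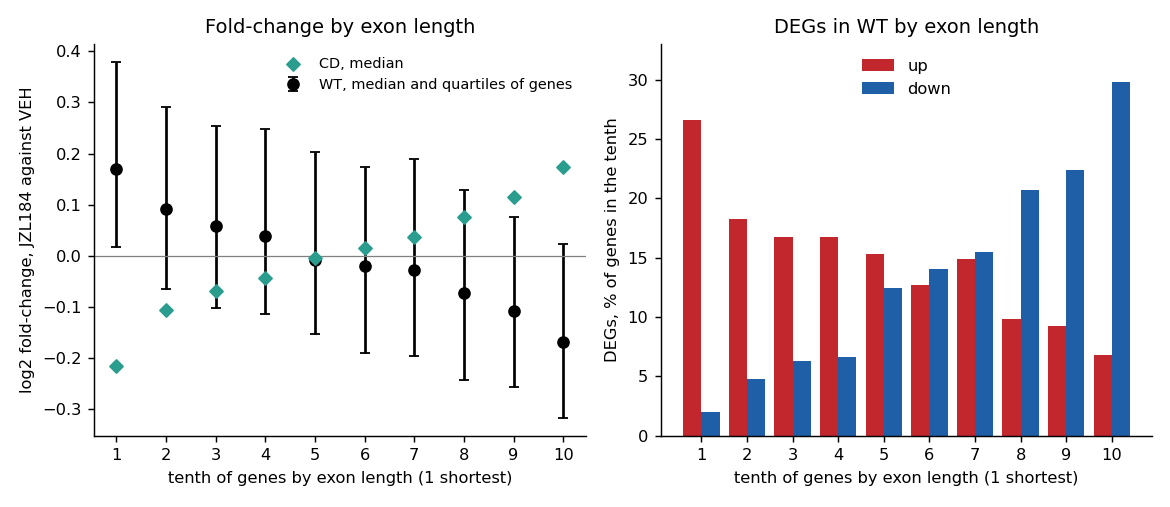
Tested genes in 10 equal groups by exon length (horizontal axis, 1 shortest). Left, median log2 fold-change of JZL184 against vehicle in WT (black, bars are quartiles over genes) and in CD mice (green), running from 0.17 to -0.17 in WT and from -0.22 to 0.17 in CD. Right, percent of genes of each group upregulated (red) or downregulated (blue) in WT, from 26.6% and 1.97% in the shortest to 6.83% and 29.8% in the longest.

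The same drug was given to CD mice, and those 6 hearts share no mouse with the WT comparison, so the difference between the 2 effects could be tested. JZL184 had 3846 DEGs in CD mice among the same genes, 1947 up and 1899 down. The JZL184 by genotype interaction passed for 6163 genes, which is 50.4% of those tested, and for 3370 of the 3430 WT DEGs. These DEGs were chosen by the WT effect, which is a term of the interaction, so the latter count is a description. The directions were mostly opposite. Of the 1793 genes upregulated in WT, 1072 were downregulated in CD mice, 720 were not DEGs there and 1 was upregulated. Of the 1637 downregulated in WT, 1210 were upregulated in CD mice, 427 were not DEGs there and 0 were downregulated. The median log2 fold-change in CD mice was -0.34 over the WT upregulated genes and 0.30 over the WT downregulated genes. Across the 12233 genes, the Pearson correlation of the 2 effects was -0.75, given as a description, since genes are not independent and both effects follow exon length in opposite ways.

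Medians of opposite sign were found for most of the larger gene groups. The median log2 fold-change in WT and in CD mice was 0.60 and -0.43 for endothelial genes, 0.60 and -0.38 for smooth muscle, 0.74 and -0.70 for macrophages, 0.82 and -0.39 for antigen presentation and 0.60 and -0.47 for interferon-stimulated genes. For ribosomal proteins it was 0.44 and -0.49, for the sarcomere -0.36 and 0.37 and for ion channels -0.32 and 0.32. Mitochondrial ribosomal proteins (-0.003 and -0.11) and adrenergic and G protein genes (0.03 and 0.01) had medians of the same sign, as did the endocannabinoid (0.12 and 0.0016) and glucocorticoid-responsive lists (-0.03 and -0.29). The interaction passed for 81 of 83 ribosomal protein genes, 35 of 41 endothelial genes and 22 of 32 sarcomere genes. Mgll had a log2 fold-change of 0.64 in WT and of -0.39 in CD mice, and the 2 effects differed by 1.04 (SE 0.19, adjusted p = 0.000987 by edgeR). The single gene upregulated in both genotypes was Angptl7, which encodes a secreted angiopoietin-like protein and was named after its values were seen. It had 1.09 and 0.82 CPM in WT VEH and 1.69, 2.40 and 2.64 CPM in WT JZL184 (log2 fold-change 1.24 with SE 0.22, adjusted p = 0.00422 by edgeR), and 0.70 in CD mice (edgeR adjusted p = 0.0274). Its WT VEH mean was 0.953 CPM, so that it passed the limit of 1 CPM only through the WT JZL184 mice, where it is higher, and its values are a description. Marker sums moved oppositely too, with 1081 to 1226 CPM of endothelial and 289 to 375 CPM of macrophage markers in CD VEH and 801 to 908 and 199 to 225 CPM in CD JZL184. The part of cell composition in the difference between genotypes was not tested.

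**Figure D5:**
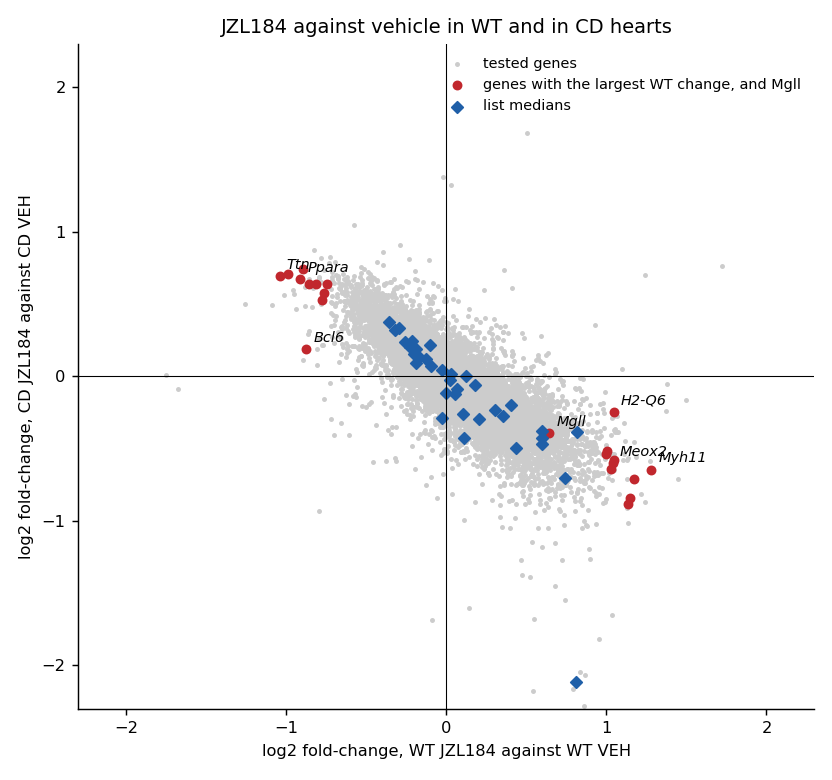
Log2 fold-change of JZL184 against vehicle in WT hearts (horizontal axis) and in CD hearts (vertical axis) for each tested gene (grey, 3 genes lie beyond the axes), the 20 genes of largest WT change and Mgll (red) and the medians of gene lists (blue). Most red points lie in the upper left or lower right, as for Myh11 (1.28 and -0.65), and the Pearson correlation over genes is -0.75.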

How the data were processed

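Heart RNA of 11 male mice was sequenced. Transcripts were quantified by the authors with Salmon 0.7.2 on the Ensembl annotation of GRCm38 and summed to genes with tximport, and the deposited table holds these estimated counts, which are not normalized. The letters in its column names are in no sample label, so columns were assigned to groups only. The number of columns without a group was 0.

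Counts were rounded to whole numbers. The tests used edgeR 4.0.16 and limma 3.58.1 under R 4.3.3, with TMM factors, a quasi-likelihood fit with 1 mean per group and no covariate, and Benjamini-Hochberg adjustment over the 12233 genes that passed the mean of 1 CPM in the 5 WT mice. DEGs had an adjusted p under 0.05. The biological coefficient of variation was 9.40%. CPM values are scaled by TMM, are not corrected for length and are compared within a gene only. Counting limits (3 counts) cover counting error only. The mice are separate animals, and the chi-square per gene between mice of a group was 21.1 to 83.2, far above sampling noise.

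Genes were named by a rule: the 10 largest rises and 10 largest falls among DEGs without overlap and at 10 CPM or more on average, the endocannabinoid genes, the 2 lowest p-values of each gene list, and cell type markers. Some genes of the rule are left undescribed, and other named genes were chosen after their values were seen. The comparison, the gene lists and the alternatives were chosen with earlier results of these data known, so no list has a test of its own: each is described by its counts, to be read against the shares of all tested genes that were called. Gene positions and exon lengths came from GENCODE mouse annotation of GRCm38, which held 22315 of the 22608 identifiers. Promoter windows came from RefSeq (GRCm38.p6).

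Alternatives were DESeq2 1.42.0, RLE and upper-quartile factors, other filters, no mitochondrial genes, only WT mice, robust dispersion, a loess offset (span 0.5) for gene length, stricter thresholds and leaving out each WT mouse. Where that left 1 WT VEH mouse, it was assumed to vary like the other groups. Counts of 12233 genes were also simulated for WT JZL184 against WT VEH, with 100 genes changed by 0.5 and 100 by 1 on the log2 scale. On these counts edgeR recovered 50% and 99% of the changed genes, with 5.70% false among its 158 calls. DESeq2 recovered 48% and 99%, with 9.26% false among its 162 calls. Far fewer genes were called there than in the hearts. The false percents hold for the simulated counts only and give no error rate for the DEGs reported here.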

Additional observations from a re-analysis of the deposited data

Results flagged for a closer look

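The effect of JZL184 differed between WT and CD hearts, by the test of the interaction between treatment and genotype, for 6163 genes, which is 50.4% of those tested. The 20 genes named for their size of change were all among them, but they were chosen by the WT effect, which is a term of this difference, so their values are a description. Of the 6 tested enzymes of 2-AG and anandamide in the same rule, Mgll and Napepld were among them. Each value below is the log2 fold-change in WT minus that in CD mice.

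Among genes higher in WT JZL184 hearts, the difference was 2.02 for Myl9, 1.99 for Tagln, 1.92 for Myh11 and 1.88 for Tcf15, which are genes of smooth muscle and endothelium. It was 1.67 for Apoe, 1.64 for Meox2, 1.63 for H2-Aa, 1.54 for H2-Eb1, 1.52 for Hic1, 1.29 for H2-Q6 and 1.04 for Mgll. H2-Q6 and H2-Eb1 were not DEGs in CD mice on their own, with log2 fold-changes there of -0.25 and -0.54 (edgeR adjusted p = 0.375 and 0.0607).

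Among genes lower in WT JZL184 hearts, it was -1.74 for Ttn, -1.70 for Myh7, -1.64 for Prune2, -1.59 for Ppara and -1.50 for Myocd. It was -1.46 for Nav2, -1.39 for Ryr2, -1.34 for Myh7b, -1.30 for Lpin1, -1.06 for Bcl6 and -0.60 for Napepld. Bcl6 and Ttn were not DEGs in CD mice on their own (log2 fold-changes 0.19 and 0.69, edgeR adjusted p = 0.613 and 0.0685).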

How the results depend on the processing

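No paired analysis was possible because the columns carry no replicate number, only letters that are in no label, of which WT VEH and WT JZL184 share D alone. This holds for pairing by replicate number. CD VEH and CD JZL184 share the letters A, C and E, so a fit blocked on letters could have been run. No such fit was made, and its effect on these results was not tested. The number of DEGs stayed within 1.5 times 3430 with DESeq2 (3906), RLE factors (3423), upper-quartile factors (3376), no filter (3163), other filters, robust dispersion, no mitochondrial genes and the gene length offset (3259). With the 5 WT mice alone it was 1603 (1064 up, 539 down), at an adjusted p under 0.01 it was 1088 (628 up, 460 down) and with a change of 1 or more required on the log2 scale it was 47 (42 up, 5 down). With 1 mouse left out it ran from 535 to 4706 (357 to 2441 up, 178 to 2265 down). Genes with an interaction numbered 4731 to 6790 with 1 mouse left out, 3999 at 0.01 and 976 with the fold-change limit. Of the DEGs, 66.4% were upregulated with the 5 WT mice alone and 59.2% with upper-quartile factors, against 1793 of 3430 as reported. No DEG changed sign in these alternatives except 15 with the length offset. With that offset the list medians were -0.37 for ion channels (-0.29 with upper-quartile factors, -0.30 with the 5 WT mice), -0.091 for the nuclear respiratory chain, -0.038 for the mitochondrial genome, 0.26 and -0.10 for cytoplasmic and mitochondrial ribosomal proteins, -0.019 for translation factors and -0.063 for the proteasome. With 1 mouse left out, medians ran from 0.24 to 0.57 for eicosanoid genes, -0.43 to -0.21 for calcium handling, -0.36 to -0.27 for ion channels, -0.24 to -0.081 for fatty acid oxidation, -0.26 to -0.058 for glycolysis, -0.012 to 0.031 for translation factors, -0.25 to -0.13 for mTORC1 and AMPK, -0.043 to 0.22 for immediate early genes, -0.37 to -0.0043 for heat shock genes, 0.10 to 0.28 for the TGF-beta pathway, -0.30 to -0.057 for the dystrophin complex and -0.30 to -0.17 for splicing regulators. Of 2711 values of 181 named genes under these alternatives, 2430 kept their direction and call, 263 lost the call (162 of them when a VEH mouse was left out), 8 gained it and 10 changed sign, none of these a DEG. With the length offset these were Abhd12 (-0.042), Daglb (0.033), Tnni3 (-0.053) and Nr1d1 (-0.034). With 1 mouse left out, Daglb ran from -0.13 to 0.056, Col1a1 from -0.24 to 0.035, Tnni3 from -0.028 to 0.17, Arntl from -0.52 to 0.014 and Nr1d1 from -0.53 to 0.30. The causes were not tested. With 2 control mice, each decides many calls, and genes at a few counts, such as Cnr1 and Faah, could not be compared at this depth.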

Other observations

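Several other lists of genes are set beside all tested genes, of which 14.7% were upregulated and 13.4% downregulated. With the 5 WT mice alone in the model, these shares were 8.70% and 4.41%. Of 38 tested genes of adrenergic and G protein signalling, 12 were upregulated and 10 downregulated, with a median log2 fold-change of 0.03, and without VEH mouse C 3 were upregulated and 2 downregulated. The upregulated genes included Rgs5 and Rgs3, which speed the shutdown of G proteins (0.56 and 0.53). The downregulated genes included the adenylyl cyclases of the cardiomyocyte, Adcy6 (-0.51) and Adcy5 (-0.32), and Pde3a (-0.57), a phosphodiesterase that breaks down cAMP. Adcy6 and Adcy5 were not called without VEH mouse C (edgeR adjusted p = 0.0579 and 0.0518). Of 30 tested genes of the TGF-beta pathway, 9 were upregulated and 1 downregulated (median 0.18). Bmp6, a ligand that endothelium supplies, went from 10.5 and 14.9 CPM to 20.6, 24.9 and 25.2 CPM (log2 fold-change 0.89 with SE 0.14, adjusted p = 0.00244 by edgeR), and Id3, a target of BMP signals, had 0.72. Without VEH mouse C, 3 genes of the pathway were upregulated.

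Of 20 tested genes of the dystrophin complex, which links the cytoskeleton of the muscle fibre to the matrix, 8 were downregulated and 0 upregulated (median -0.17). The downregulated genes numbered 1 without VEH mouse C and 3 without VEH mouse D, and with the length offset 5 were downregulated and 3 upregulated. Sspn, sarcospan, went from 187 and 185 CPM to 134, 131 and 148 CPM (log2 fold-change -0.44, edgeR adjusted p = 0.00294). Dmd, dystrophin, had -0.70 (edgeR adjusted p = 0.0123, and 0.114 without VEH mouse C). Of 15 tested muscle splicing regulators, 7 were downregulated and 1 upregulated (median -0.22), but 0 were called without VEH mouse C and 4 were downregulated with the 5 WT mice alone. Rbm24 (-0.60) and Rbm20 (-0.53), the latter a regulator of titin splicing, were lower, and Ptbp1 (0.41), which represses muscle exons, was higher. Without VEH mouse C the edgeR adjusted p was 0.0565 for Rbm24, 0.113 for Rbm20 and 0.107 for Ptbp1.

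Of 18 tested glucocorticoid-responsive genes, 1 was upregulated, Hsd11b1 (0.75), which regenerates active glucocorticoid, and 3 were downregulated, among them Klf15 (-0.59). The downregulated genes numbered 1 without VEH mouse C and 1 without VEH mouse D. Klf15 went from 49.4 and 49.0 CPM to 35.8, 30.8 and 31.8 CPM. Of 27 tested antioxidant genes, 4 were upregulated (14.8%) and 2 downregulated, which is near the share of all genes, and the upregulated genes numbered 0 without VEH mouse C, without VEH mouse D, with the 5 WT mice alone or with the length offset, and 7 without mouse A. Hmox1, heme oxygenase, had 4.63 and 5.41 CPM in WT VEH and 6.77, 15.6 and 8.62 CPM in WT JZL184 (edgeR adjusted p = 0.165), and Mt2, a metallothionein, had 4.05 and 8.25 CPM against 6.77, 28.8 and 8.50 CPM, with mouse B highest for both. Of 39 tested autophagy genes, 3 were downregulated and 1 upregulated, and the downregulated genes numbered 7 without mouse A and 1 without VEH mouse C or D. Of 7 tested adipocyte genes, 1 was upregulated and 1 downregulated. By autosome, the share of tested genes that were DEGs ran from 24.3% on chromosome 13 to 32.9% on chromosome 1.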
